A study of Homo sapiens with 4 samples.

Results

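The genes described here are 10 AP-1 and immediate early genes: FOS, FOSB, FOSL1 and FOSL2 of the FOS family, JUN, JUNB and JUND of the JUN family, the zinc finger gene EGR1, and the immediate early response genes IER2 and IER3. They were chosen by symbol, with earlier results of these data known. A probe set was used when the platform annotation gave it 1 of these symbols and no other, and of several probe sets the one with the highest mean stood for the gene. All 10 had such a probe set, 31 probe sets in total, and all 10 were among the 14970 genes tested of 18239 measured.

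The arrays hold RNA of PC9, a human line of lung adenocarcinoma whose growth depends on a mutant EGFR, and in MTAC-P, a resistant lung cancer line raised under mild exposure to a tyrosine kinase inhibitor (TKI). Per the labels, both lines were grown in DMEM with 10% serum, and total RNA was taken. The inhibitor, its dose, the parent of MTAC-P, whether MTAC-P is 1 clone and whether drug was present at harvest were not given in the sources used here. There were 4 arrays, replicates 1 and 2 of each line, and the labels do not say whether the duplicates came from separate cultures, so p-values measure only the spread between these arrays, which may be technical. The question is which genes differ between the resistant line and PC9.

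FOS and JUN proteins pair through leucine zippers to form the transcription factor AP-1, which binds the DNA sequence TGACTCA and its relatives. Immediate early genes are transcribed within a short time of a stimulus without new protein synthesis, and growth factor receptors such as EGFR reach them through the kinase ERK and the factors ELK1 and SRF. FOS, FOSB, JUNB and EGR1 transcripts are short-lived, whereas FOSL1 is commonly maintained in carcinoma cells with steady ERK signalling. In lung adenocarcinoma with mutant EGFR, AP-1 and EGR1 are studied as outputs of the receptor and as part of the response to its inhibition.

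Values are log2 expression values, so a difference of 1 is a 2-fold difference, and where the arrays of a line are given, replicate 1 comes first. The epithelial markers EPCAM, KRT7, KRT8, KRT18, KRT19 and CDH1 lay at 10.28 or above on every array. The lung lineage markers NKX2-1, NAPSA and SFTPB lay between 4.59 and 5.22, near the array's nonspecific probe sets rich in G and C (4.93 to 5.32). Array medians over all probe sets ran from 4.85 to 4.88. Across all tested genes 3 passed limma's adjusted p threshold of 0.05, which is 0.02%, and the median log2 difference between the lines was 0.031. In bulk RNA, fewer cells expressing a gene and less RNA per cell cannot be told apart.

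The promoters of EGR1 and JUN are shown because EGR1 had the widest range of the 10 genes over the 4 arrays and because both carry a motif by which immediate early genes are known to be controlled. The sequences are RefSeq's, build GRCh38.p14, 5′ to 3′ on the gene's strand, and cover the 250 bases before the gene's start. That of EGR1 is chr5:138465229-138465478 on the plus strand, with its 2 matches to the CArG box, the site bound by SRF, in capitals. That of JUN is chr1:58784048-58784297 on the minus strand, with the AP-1-like TGACATCA in capitals.
EGR1: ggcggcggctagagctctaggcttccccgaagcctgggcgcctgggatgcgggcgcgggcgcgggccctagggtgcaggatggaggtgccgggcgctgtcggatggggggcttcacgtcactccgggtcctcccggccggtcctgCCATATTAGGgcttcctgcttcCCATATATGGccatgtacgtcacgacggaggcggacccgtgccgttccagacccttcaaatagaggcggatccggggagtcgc
JUN: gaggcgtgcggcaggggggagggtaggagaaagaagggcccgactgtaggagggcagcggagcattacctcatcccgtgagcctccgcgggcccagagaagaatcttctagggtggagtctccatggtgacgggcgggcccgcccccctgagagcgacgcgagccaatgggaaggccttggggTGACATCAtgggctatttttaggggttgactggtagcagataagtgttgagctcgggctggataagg

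Promoter entries were found for 8 of the 10 genes. Both strands were searched for TGACTCA, for the cyclic AMP response element TGACGTCA, for TGACATCA, for the EGR site GCGGGGGCG and for the CArG box, and no 2 matches overlapped. The CArG matches of EGR1 lie 105 to 96 and 83 to 74 bases before the start, and 1.14% of the 27305 promoters of the same length hold a CArG box. The TGACATCA of JUN lies 67 to 60 bases before the start, and 2.45% of promoters hold it. JUND has a TGACGTCA, held by 1.77% of promoters, 200 to 193 bases before the start. TGACTCA, held by 4.16% of promoters, and GCGGGGGCG, held by 4.68%, had no match in the 8 windows. These matches describe the letters in the windows and are not evidence of binding.

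None of the 10 genes passed the limma test between the lines, which did not pair arrays by replicate number. With that number added to the fit, 2 passed, EGR1 and FOSL1, as did 2079 of all 14970 genes. No label says that equal numbers belong together. The line means of the 10 genes differed by at most 1.56-fold. The mean was higher in MTAC-P for 8 genes and lower for FOS and FOSL2, and the median log2 difference was 0.21. Of all tested genes 53.8% were higher in MTAC-P. No overlap between the arrays of PC9 and MTAC-P was seen for 4 of the 10 genes, against 53.2% of all tested genes. In 3 of these (FOSL1, JUN and IER2) both MTAC-P arrays were above, against 28.3% of tested genes, and in 1 (FOSL2) both were below, against 24.9%. An unadjusted limma p below 0.05 was reached by 1 of the 10, IER2, against 18.9% of all tested genes. The number of members that separated the lines was thus no larger a share than over all genes. The count of 8 higher genes was 5 if MTAC-P replicate 2 was left out and 6 if MTAC-P replicate 1 was.

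**Figure D1:**
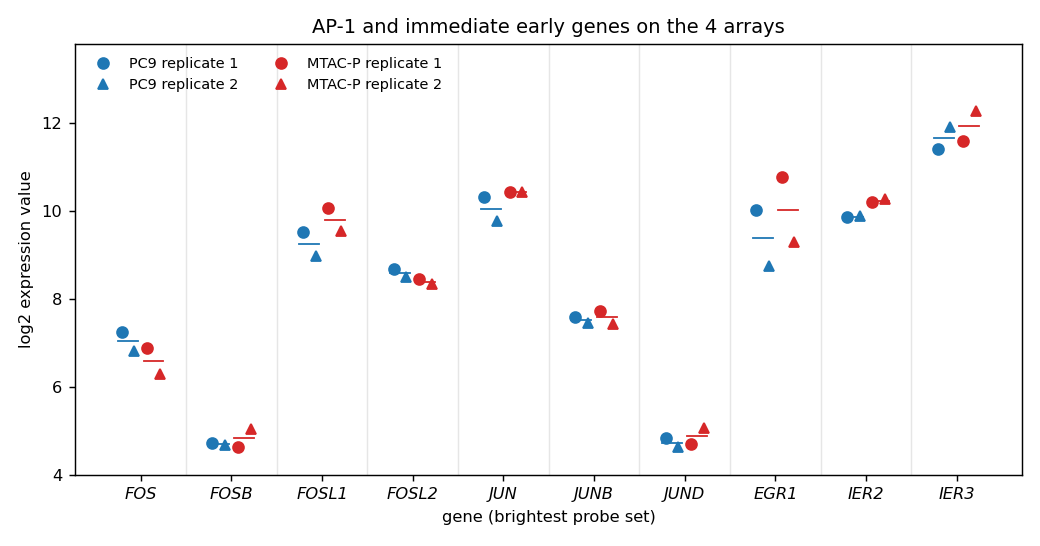
Log2 expression values of the 10 genes, each on its brightest probe set, with 1 point per array (circles replicate 1, triangles replicate 2, blue PC9, red MTAC-P) and a line at each mean of 2 arrays. For EGR1 replicate 1 lies above replicate 2 by 1.26 in PC9 and 1.47 in MTAC-P, more than the 0.65 between the line means; levels of different genes are not comparable.

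Among the FOS family, FOSL1, which encodes FRA-1, had the largest difference between the lines. Its value was 9.52 and 8.97 in PC9 and 10.06 and 9.55 in MTAC-P. Both MTAC-P arrays thus lay above both PC9 arrays, but the lower MTAC-P array was only just above the higher PC9 array. The means were 9.24 ± 0.39 and 9.80 ± 0.36 (SD, n = 2 per line), 1.48-fold higher in MTAC-P. The log2 difference of 0.56 (SE 0.26, 95% interval -0.063 to 1.18) did not pass the limma test (adjusted p = 0.304). All 6 probe sets of FOSL1 were higher in MTAC-P, by 0.52 to 0.82. On some of them the lines overlapped and on others not. The second brightest overlapped, with 9.41 on PC9 replicate 1 and 9.37 on MTAC-P replicate 2. Probe sets of a gene read the same RNA and are not replicates. The difference of FOSL1 was 0.29 without PC9 replicate 2, 0.30 without MTAC-P replicate 1, 0.82 without MTAC-P replicate 2 and 0.84 without PC9 replicate 1. Its size thus depended on which array was left out. Its direction could not change, because the lines did not overlap on the probe set used. The replicate 1 arrays differed by 0.54 between the lines and the replicate 2 arrays by 0.58.

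FOS, the founding member of the family, was 7.26 and 6.82 in PC9 and 6.88 and 6.29 in MTAC-P. The lines overlapped, since MTAC-P replicate 1 lay above PC9 replicate 2. The means were 7.04 ± 0.31 in PC9 and 6.58 ± 0.42 in MTAC-P (SD, n = 2), a log2 difference of -0.45 (SE 0.26) with an interval from -1.07 to 0.16 and a limma adjusted p of 0.380. FOS and FOSL1 thus had opposite signs, although neither passed the test. Of the 4 probe sets of FOS, 3 were lower in MTAC-P, the second brightest by -0.65, and 1 differed by 0.047. Leaving out MTAC-P replicate 2 gave a difference of -0.16, and leaving out MTAC-P replicate 1 gave -0.75.

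FOSL2, which encodes FRA-2, was 8.68 and 8.51 in PC9 and 8.44 and 8.33 in MTAC-P. Both MTAC-P arrays lay below both PC9 arrays by a small margin, and the log2 difference was -0.21 (SE 0.16, limma adjusted p = 0.519). This direction held only for the brightest of its 5 probe sets: the other 4 were higher in MTAC-P, by 0.049 to 0.33, and by the mean of the 5 the difference was 0.084. FOSB was 4.72 and 4.68 in PC9 and 4.63 and 5.04 in MTAC-P, with overlapping arrays and a log2 difference of 0.13 (limma adjusted p = 0.737). Both probe sets of FOSB were dim, with means of 4.77 and 4.43. FOSB can therefore not be called expressed here, and its difference turned to -0.073 without MTAC-P replicate 2.

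**Figure D2:**
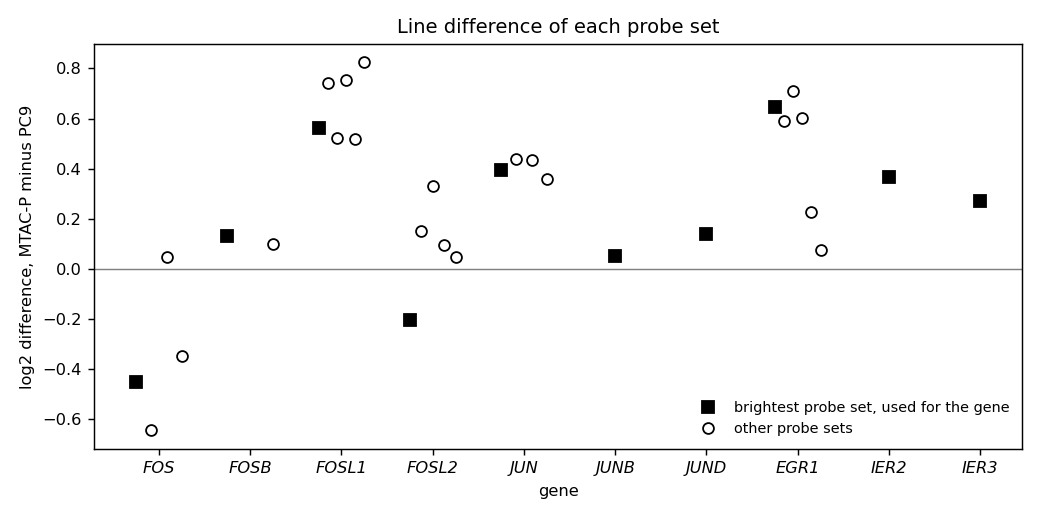
Log2 difference MTAC-P minus PC9 of every probe set of the 10 genes (31 in all), with filled squares for the brightest probe set and open circles for the others. All 6 probe sets of FOSL1, all 6 of EGR1 and all 4 of JUN lie above 0, while those of FOS and FOSL2 lie on both sides.

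JUN, the main partner of FOS proteins, was 10.31 and 9.77 in PC9 and 10.44 and 10.43 in MTAC-P. PC9 replicate 2 was the low array, and the MTAC-P arrays, which nearly coincided, lay above both PC9 arrays. The means were 10.04 ± 0.39 and 10.43 ± 0.0091 (SD, n = 2), a log2 difference of 0.39 (SE 0.21, 95% interval -0.13 to 0.91, limma adjusted p = 0.367). Its 4 probe sets were higher in MTAC-P by 0.36 to 0.44. On the dimmest of them alone the lines overlapped, with 7.27 on PC9 replicate 1 and 7.175 on MTAC-P replicate 2. The MTAC-P arrays nearly coincided on the brightest, but over the 4 probe sets replicate 2 minus replicate 1 ran from -0.46 to 0.30. Without PC9 replicate 2 the difference was 0.12, and without PC9 replicate 1 it was 0.67.

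JUNB, a JUN family member with weaker activating function, was 7.59 and 7.46 in PC9 and 7.73 and 7.42 in MTAC-P. The MTAC-P arrays enclosed those of PC9, and the log2 difference was 0.051 (SE 0.18, 95% interval -0.38 to 0.48, limma adjusted p = 0.891). It changed sign without PC9 replicate 2 (-0.016) and without MTAC-P replicate 1 (-0.10). JUND, usually the most constitutive JUN gene, had 1 probe set of its own, at 4.83 and 4.64 in PC9 and 4.69 and 5.06 in MTAC-P. These values lay near or below those of the nonspecific probe sets rich in G and C, so this probe set does not show the level of JUND. The lines overlapped, with a log2 difference of 0.14 (limma adjusted p = 0.718) that was -0.043 without MTAC-P replicate 2.

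EGR1, an early growth response factor that binds GC-rich promoters, was 10.02 and 8.75 in PC9 and 10.76 and 9.29 in MTAC-P. In both lines replicate 1 was the high array, and PC9 replicate 1 lay above MTAC-P replicate 2, so the lines overlapped. The means were 9.38 ± 0.89 and 10.03 ± 1.04 (SD, n = 2), a 1.56-fold difference and the largest of the 10. The log2 difference of 0.65 (SE 0.56) had a 95% interval from -0.71 to 2.00 and did not pass the limma test (adjusted p = 0.567). The replicate 1 arrays differed by 0.75 between the lines and the replicate 2 arrays by 0.54. All 6 probe sets of EGR1 were higher in MTAC-P, by 0.074 to 0.71. The 0.074 came from the dimmest of them, with a mean of 4.93. Without MTAC-P replicate 1 the difference was -0.091, without PC9 replicate 2 it was 0.014, without PC9 replicate 1 it was 1.28 and without MTAC-P replicate 2 it was 1.38.

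IER2, a nuclear protein gene induced by growth factors, was 9.85 and 9.89 in PC9 and 10.21 and 10.27 in MTAC-P. Its duplicates were close in both lines, differing by 0.040 in PC9 and 0.068 in MTAC-P, and the lines did not overlap. The means were 9.87 ± 0.028 and 10.24 ± 0.048 (SD, n = 2), 1.29-fold higher in MTAC-P. The log2 difference of 0.37 (SE 0.15, 95% interval 0.0003 to 0.73) had an unadjusted limma p of 0.0499 and an adjusted p of 0.265. Leaving out any 1 array kept the difference of IER2 between 0.33 and 0.40. IER2 had 1 probe set, so no other probe set could be set beside it.

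IER3, a stress-inducible gene that is also a target of NF-kB, was 11.41 and 11.91 in PC9 and 11.59 and 12.28 in MTAC-P. Here replicate 2 was the high array in both lines, the reverse of EGR1, and the lines overlapped. The means were 11.66 ± 0.36 and 11.93 ± 0.49 (SD, n = 2), and the log2 difference was 0.27 (SE 0.28, 95% interval -0.41 to 0.95, limma adjusted p = 0.635). Without MTAC-P replicate 2 it was -0.074.

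**Figure D3:**
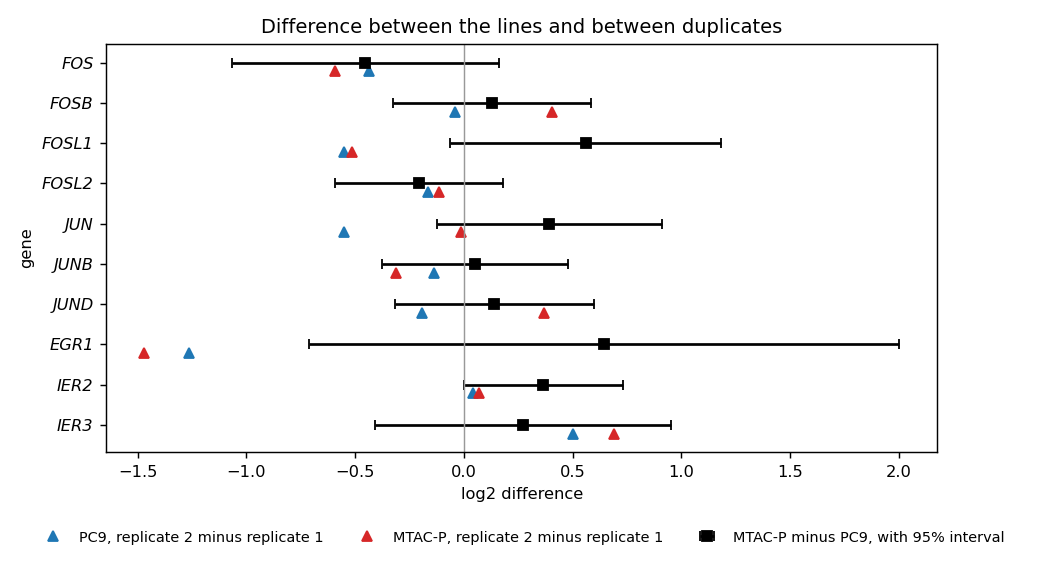
Log2 differences of the 10 genes: black squares give MTAC-P minus PC9 with limma's 95% interval, and triangles give replicate 2 minus replicate 1 within PC9 (blue) and MTAC-P (red). The interval includes 0 for every gene except IER2, where it begins at 0.0003, and the triangles of EGR1 lie at -1.26 and -1.47.

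The duplicates were next compared within each line, as differences of single arrays that have no error of their own. EGR1 was 2.40-fold higher on replicate 1 than on replicate 2 in PC9 and 2.77-fold higher in MTAC-P. On the probe sets used for the genes, it was the only one of the 10 at least 2-fold apart between duplicates, against 1.28% of tested genes in PC9 and 1.28% in MTAC-P. The second brightest probe set of FOS differed by -1.05 between replicate 2 and replicate 1 in MTAC-P, also over 2-fold, and by -0.30 in PC9. Only 39 tested genes, 0.261%, were at least 2-fold apart in the same direction in both lines, and EGR1 was 1 of them. By size its duplicate difference ranked 91 of 14970 in PC9 and 40 of 14970 in MTAC-P, while its difference between the line means ranked 1376. All 6 EGR1 probe sets were higher on replicate 1 in both lines, by 0.058 to 1.64 in PC9 and by 0.23 to 1.47 in MTAC-P. By the mean of its 6 probe sets, the PC9 duplicates of EGR1 were less than 2-fold apart. Each of its 4 brightest probe sets was over 2-fold apart in PC9, by 1.02 to 1.64. The 2 dimmest, with means of 5.48 and 4.93 near the nonspecific probe sets rich in G and C, differed by 0.058 and 0.28.

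Replicate 1 was above replicate 2 in both lines for 6 of the 10 genes (FOS, FOSL1, FOSL2, JUN, JUNB and EGR1), against 26.8% of tested genes. For FOSL1 the difference between replicate 2 and replicate 1 was -0.55 in PC9 and -0.51 in MTAC-P, close to the size of its line difference, and all 6 probe sets had this sign in both lines. For FOS it was -0.44 and -0.59. For JUN it was -0.55 in PC9 but -0.013 in MTAC-P. In MTAC-P replicate 1 was above on 3 of the 4 probe sets of FOS and on 3 of the 4 of JUN. IER2 and IER3 went the other way in both lines, by 0.50 and 0.69 for IER3, as did 29.2% of tested genes. FOSB and JUND, the dim genes, had opposite signs in the 2 lines. In 7 of the 10 genes the duplicates of at least 1 line were further apart than the line means, against 61.5% of tested genes. Line means rest on 2 arrays and duplicate differences on single ones, which makes the latter wider.

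A measure of RNA quality also moved with the replicate number. For the ACTB transcript, the value of its 3′ probe set minus that of its 5′ probe set, which is larger where RNA is shortened or copied less far, was 1.71 and 2.49 in PC9 and 1.51 and 1.75 in MTAC-P, so it was larger on replicate 2 in both lines. For GAPDH it was -0.057 and 0.038 in PC9 and -0.090 and -0.069 in MTAC-P. For both transcripts the value was largest on PC9 replicate 2, and at each replicate number it was smaller in MTAC-P than in PC9. For ACTB, MTAC-P replicate 2 was close to PC9 replicate 1, so PC9 replicate 2 stood apart from the other arrays. The part of RNA quality in the duplicate differences of EGR1, FOSL1 and FOS was not tested. Nor was its part in the differences between the lines.

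**Figure D4:**
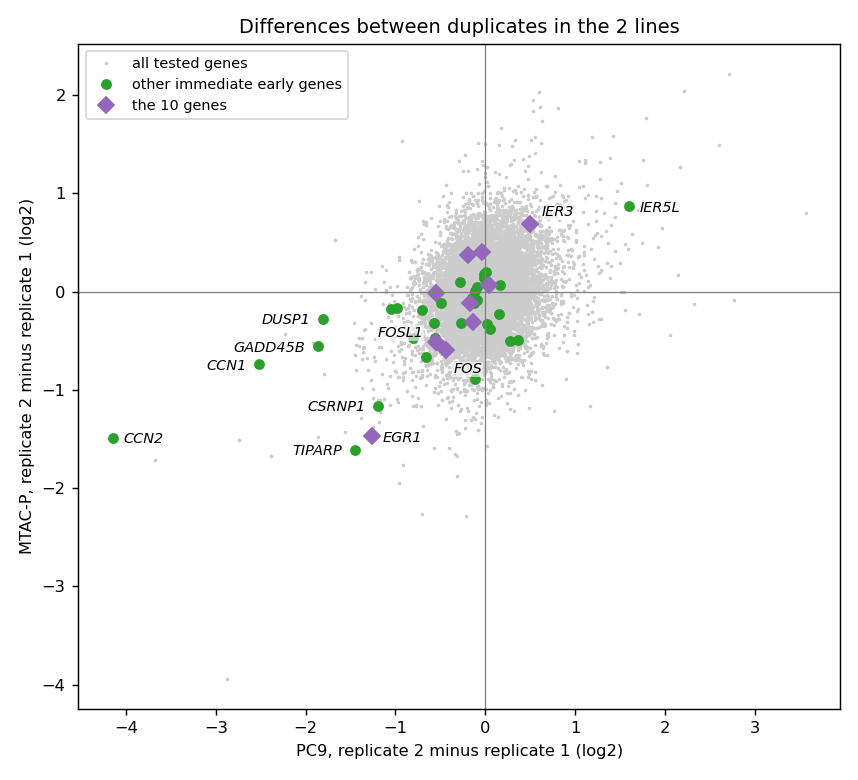
Log2 difference replicate 2 minus replicate 1 in PC9 (horizontal) and MTAC-P (vertical) for the 14970 tested genes (grey), with the 10 genes as purple diamonds and other immediate early genes as green circles. EGR1 lies at -1.26 and -1.47, beside TIPARP and CSRNP1, and IER3 lies on the opposite side at 0.50 and 0.69.

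The genes whose pattern over the 4 arrays was most like that of EGR1 were found by the Euclidean distance between values centred on each gene's mean. They were CSRNP1, an immediate early nuclear protein gene, at a distance of 0.25, IL1R2, the decoy receptor of interleukin 1, at 0.37, and ABL2, a tyrosine kinase gene, at 0.43. CSRNP1 was 7.97 and 6.78 in PC9 and 8.50 and 7.33 in MTAC-P, so that replicate 1 was again the high array in both lines. Over 4 arrays this closeness is a description only.

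Many of the further immediate early genes were also higher on replicate 1. Of 35 listed genes 32 were tested, and replicate 1 lay above replicate 2 in both lines for 19 of them, against 26.8% of tested genes, and below it in both for 3. In PC9, 7 were at least 2-fold higher on replicate 1 and 1 on replicate 2, against 1.28% of tested genes in either direction. In MTAC-P 3 were at least 2-fold higher on replicate 1, and 3 were so in both lines: CCN2, TIPARP and CSRNP1, of which TIPARP and CSRNP1 were named after their values were seen. CCN2, a matricellular growth factor gene, was 10.68 and 6.53 in PC9 and 11.08 and 9.60 in MTAC-P. CCN1, its relative, was 11.18 and 8.67 in PC9 and 11.71 and 10.97 in MTAC-P. PC9 replicate 2 was the lowest array for both, and CCN2 was also 2.81-fold lower on replicate 2 than on replicate 1 in MTAC-P. TIPARP, which encodes an ADP-ribosyltransferase, was 10.93 and 9.49 in PC9 and 10.87 and 9.26 in MTAC-P, with nearly the same values in the 2 lines.

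Between the lines, 0 of these 32 genes passed the limma test, 5 had an unadjusted limma p below 0.05 (18.9% over all tested genes), and 18 had the higher mean in MTAC-P (53.8% over all tested genes) against 14 in PC9, the median log2 difference being 0.13 (0.031 over all tested genes). CCN2 and CCN1 had the largest positive differences, 1.73 (SE 1.24) and 1.42 (SE 0.75), and the lines overlapped for both. Without PC9 replicate 2 the difference of CCN2 was -0.34 and that of CCN1 was 0.16. Without PC9 replicate 1 they were 3.81 and 2.68 and passed the limma test (adjusted p = 0.0268 and 0.0198). Over these and the alternatives without a replicate block the limma adjusted p ran from 0.0268 to 0.858 for CCN2 and from 0.0198 to 0.902 for CCN1. RHOB, a small GTPase gene, differed by -0.77 (SE 0.25) without overlap, and by the mean of its probe sets by -0.084. Leaving out 1 array moved RHOB between -1.05 (without PC9 replicate 2) and -0.49 (without PC9 replicate 1). EGR3, a relative of EGR1, was 5.43 and 4.77 in PC9 and 4.82 and 4.16 in MTAC-P, with overlap. On 3 of the 4 arrays it lay below the nonspecific probe sets rich in G and C (5.06 and 4.93 in PC9, 5.18 and 5.32 in MTAC-P), so its difference is not given a size. Among the 5 probe sets of RHOB at least 1 had the opposite sign, up to 0.43.

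Of 13 other AP-1 and basic leucine zipper genes 11 were tested, 0 passed the limma test, 2 had an unadjusted limma p below 0.05 (against 18.9% of all genes), and 9 had the higher mean in MTAC-P (against 53.8% of all genes) and 2 the higher mean in PC9, the median log2 difference being 0.24. ATF2, a stress-kinase substrate that pairs with JUN, was 7.36 and 7.61 in PC9 and 6.78 and 6.51 in MTAC-P, without overlap. Its log2 difference was -0.83 (SE 0.18, limma adjusted p = 0.117), although its 5 probe sets ran from -0.83 to 0.089 and their mean differed by -0.29. JDP2, which pairs with JUN as a repressor, differed by 0.71 (SE 0.31), and its 3 probe sets by 0.53 to 0.75. The difference of JDP2 was 0.35 without MTAC-P replicate 2, 0.37 without PC9 replicate 2, 1.04 without PC9 replicate 1 and 1.06 without MTAC-P replicate 1. MAFF, a small MAF factor, differed by 0.57 (SE 0.29), by 0.13 without PC9 replicate 2 and by 1.01 without PC9 replicate 1, and MAF by -0.11 at values of at most 4.56. The lines did not overlap for JDP2, but the highest PC9 array, 8.01, and the lowest MTAC-P array, 8.03, nearly touched.

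Of 20 upstream kinases and factors 17 were tested, 0 passed the limma test, 3 had an unadjusted limma p below 0.05 (against 18.9% of all genes), and 9 had the higher mean in MTAC-P (against 53.8% of all genes) and 8 the higher mean in PC9, the median log2 difference being 0.045. MRTFB, a coactivator of SRF, was 8.34 and 8.66 in PC9 and 7.72 and 7.62 in MTAC-P, a log2 difference of -0.83 (SE 0.18, limma adjusted p = 0.115). RPS6KA3, the ERK-activated kinase RSK2, differed by -0.58 (SE 0.16), and both its probe sets were lower in MTAC-P. MAPK3, which encodes ERK1, differed by 0.51 (SE 0.23), by 0.81 if MTAC-P replicate 1 was left out and by 0.20 if replicate 2 of that line was, and ELK1, the ERK-activated partner of SRF, by 0.40 (SE 0.16). The 3 probe sets of MRTFB ran from -0.83 to 0.22, and their mean differed by -0.36. Those of ELK1 ran from 0.13 to 0.40, and their mean differed by 0.27.

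Of 25 AP-1 target genes 20 were tested, 0 passed the limma test, 7 had an unadjusted limma p below 0.05 (against 18.9% of all genes), and 11 had the higher mean in MTAC-P (against 53.8% of all genes) and 9 the higher mean in PC9, the median log2 difference being 0.032. SPP1, the secreted matrix protein osteopontin, was 7.39 and 7.46 in PC9 and 5.83 and 5.17 in MTAC-P. Its log2 difference of -1.92 (SE 0.24, limma adjusted p = 0.0971) was the largest of the list, and its 6 probe sets differed by -1.92 to -0.89. Without PC9 replicate 1 the difference of SPP1 was -1.96 and passed (limma adjusted p = 0.0446), as it did with a variance trend (limma adjusted p = 0.0356). Over the alternatives without a replicate block its limma adjusted p ran from 0.0356 to 0.281. The lower MTAC-P value of SPP1 lay under the 5.32 of that array's nonspecific probe sets rich in G and C, so the size of the difference is uncertain. PLAUR, the urokinase receptor, was 9.19 and 9.10 in PC9 and 9.78 and 9.93 in MTAC-P, a log2 difference of 0.71 (SE 0.16, limma adjusted p = 0.120), and its 5 probe sets were all higher, by 0.33 to 0.71. The collagenase gene MMP1 differed by 0.88 (SE 0.23, limma adjusted p = 0.141), but its other probe set by 0.24, and the difference was 0.57 without PC9 replicate 1. The EGFR ligand gene EREG differed by -1.09 (SE 0.40, limma adjusted p = 0.230). Its 4 probe sets ran from -1.09 to 0.39, their mean differed by -0.28, and leaving out 1 MTAC-P array gave -0.55 (replicate 2 left out) or -1.62 (replicate 1 left out). The lines did not overlap for 13 of the 20, against 53.2% of tested genes.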

How the data were processed

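The authors deposited log2 expression values, 1 per probe set and array (49386 probe sets, 3.32 to 14.6); the scale was inferred from the values. Agilent Feature Extraction 10.7 is named in the submitters' processing notes, whereas the probe sets are of Affymetrix type; background correction, normalization and summarization are not given in the sources used here. Gene identifiers were used to update symbols to RefSeq's GRCh38.p14 table. Genes whose brightest probe set averaged less than 4.14 (the 25th percentile over the table) were left out. MTAC-P was set against PC9 in R 4.3.3 with lmFit and eBayes of limma 3.58.1 (2-sided), with Benjamini-Hochberg adjustment over all 14970 genes; the fit was tested on simulated data. The number of arrays limits the precision: an exact permutation test of 2 against 2 arrays cannot go below 0.333. All 10 genes are named, and from each further list up to 2 genes with the largest positive and 2 with the largest negative difference. Members and lists were chosen with earlier results of these data known. The alternatives were 75th percentile centring, quantile normalization, other dim filters, the mean of all probe sets, a variance trend, a pseudocount of 16, the replicate block and leaving out each array. Figures were drawn with matplotlib 3.10.9.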

Additional observations from a re-analysis of the deposited data

How the results depend on the processing

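No member passed the limma threshold under any of the alternatives run except the replicate block, under which 2 did, EGR1 (adjusted p = 0.0166) and FOSL1 (adjusted p = 0.0372), with log2 differences that the block leaves as they are. Over all genes the fit with the replicate block called 2079 of 14970. This fit leaves 1 residual degree of freedom per gene. Of the 16 named genes of the further lists 13 passed with the block. These 16 were picked for the size of their line differences, which the block leaves as they are, so their count says nothing about the lists. With all 4 arrays kept, the other alternatives took only SPP1 of the 16 past the threshold. The duplicates' deviations correlated between the lines over the tested genes (r = 0.28, genes counted as points). With 2 pairs and no label that ties equal numbers together, what arrays of equal number share cannot be told. The count over all genes, 3, was 1 with the 50th percentile filter, 1 with the pseudocount of 16, 0 with each gene's mean over probe sets, 77 with a variance trend and 0 to 68 when 1 array was left out. Members higher in MTAC-P, 8 of 10, numbered 5 to 8 when 1 array was left out; FOSB and JUND were below the 50th percentile filter and not tested there. By the mean of each gene's probe sets 0 members were at least 2-fold apart between the PC9 duplicates. For EGR1 that mean includes 2 dim probe sets near background. Averaging the probe sets of FOSL2 gave 0.084, the opposite sign. When 1 array was left out, log2 differences ran from -0.10 to 0.21 for JUNB, from -0.091 to 1.38 for EGR1, from -0.073 to 0.33 for FOSB, from -0.043 to 0.32 for JUND, from -0.074 to 0.62 for IER3 and from -0.34 to 3.81 for CCN2, and so changed sign. The cause of these changes was not tested. Values of FOSB and JUND near background limit what their differences can show.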

Other observations

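Several genes outside the naming rule, chosen after their values were seen, also differed between duplicates. ATF3, a stress-induced AP-1 partner, was 7.18 and 4.95 in PC9 and 6.30 and 5.87 in MTAC-P, replicate 1 first, while its line difference was 0.014. The value of 4.95 was close to the 4.93 of that array's nonspecific probe sets rich in G and C, so the PC9 gap has no exact size. Between replicate 2 and replicate 1 the phosphatase gene DUSP1 differed by -1.80 in PC9 and -0.28 in MTAC-P. Its 5.09 on PC9 replicate 2 was close to the same 4.93. Its MTAC-P values, 5.85 and 5.57, were not far above the 5.18 and 5.32 of those arrays, so these gaps have no exact size either. The stress gene GADD45B differed by -1.86 in PC9 and -0.56 in MTAC-P, and SRF, the factor that binds CArG boxes, by -1.03 and -0.49. IER5L went the other way, by 1.60 in PC9 and 0.87 in MTAC-P. The collagenase gene MMP13, an AP-1 target, was 4.75 and 7.36 in PC9 and 4.56 and 6.04 in MTAC-P, and on both replicate 1 arrays it lay below those nonspecific probe sets (5.06 and 5.18). Each of these genes had the same sign in both lines, but all were picked for the size of their duplicate differences.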
